A study of Mus musculus with 22 samples.

Results

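The 35 genes described here encode the machinery that takes up glucose, breaks it down to pyruvate and lactate, exports the lactate, gates the entry of pyruvate into mitochondria, and runs the pentose phosphate branch. They were chosen by name, from a fixed list that was set with earlier results of these data known. Every one was found on the array design, so they are 35 of the 27352 genes that the probes of the 22 arrays represent. The 64 probes that carry their names include older symbols, such as Pkm2 for Pkm. The gene that the array files call Pgm2 is named Pgm1 in RefSeq, and it is given as Pgm2 here.

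Gene expression was measured on 22 one-colour Agilent mouse arrays, with 1 array per group, in 3 sets. The first set followed primordial germ cells (PGCs), the embryonic precursors of eggs and sperm, from embryos at E11.5: uncultured PGCs, day 1 with bFGF, days 2, 3 and 6 with bFGF, 2i and A83-01, day 10, for which the labels name no additions, and an embryonic germ cell (EGC) line, the pluripotent line that PGCs give rise to in culture. An embryonic stem cell (ESC) line, from the blastocyst, stood beside it. The second set held E11.5 PGC cultures at day 2, all with bFGF: alone, with the MEK inhibitor PD325901 at 1 µM, with the GSK inhibitor CHIR99021 at 3 µM, with A83-01, a blocker of activin and TGF-beta receptors, at 250 nM, with 4-hydroxytamoxifen (4OHT) at 100 nM, and with 2i, A83-01 and 4OHT together. Here 2i means both kinase inhibitors. The labels give 4OHT as a means of AKT activation and do not name the genotype of the cells that received it. The third set held the EBRTcH3 ESC line, parental or with forced expression of Prdm14, Vasa, Nanos2, Nanos3, Dnd, GFP or Blimp-1. The GFP and Blimp-1 constructs are titled EF1a, IRES-GFP and day 2. The array titled Dnd has a source label that reads End. The medium was Knockout DMEM with KSR and LIF for all groups, per the labels. Cells carrying constructs had been sorted by GFP, and the PGC cultures and the ESC and EGC lines by SSEA-1, a surface sugar of early germ and stem cells.

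In glycolysis, hexokinase phosphorylates glucose that transporters have let in, phosphofructokinase commits it, aldolase splits it, and the enzymes from Gapdh to pyruvate kinase recover energy as ATP. Lactate dehydrogenase then regenerates NAD from NADH, monocarboxylate transporters carry the lactate out, and pyruvate dehydrogenase, held in check by the Pdk kinases, admits pyruvate to the citrate cycle. Pluripotent stem cells are known for high glycolytic flux, and the pentose phosphate branch supplies proliferating cells with NADPH and ribose.

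All values called levels are log2 intensities set against the 75th percentile of their own array, so 0 is the brightness of that percentile, and a difference of 1 is 2-fold. Levels of different probes cannot be set against each other. The 75th percentile ranged from an intensity of 120.3 on the day 2 array with 2i, A83-01 and 4OHT to 750.3 on the ESC array, and no probe was saturated. It lay below 250 on 6 arrays: uncultured PGCs, parental EBRTcH3, Nanos2, Blimp-1 and both 4OHT arrays. Of the 35 genes, 33 were well above background on all 22 arrays, against 41.5 percent of all genes. The exceptions were Eno2, not well above background on the day 2 array with 2i, A83-01 and 4OHT, and Pfkp, whose spot was left out as an outlier on the day 6 array.

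To compare the PGC side of the study with its pluripotent cells, the 10 arrays of uncultured PGCs and cultures of days 1 to 3, all day 2 additions included, are called early. The 10 arrays of ESC, EGC and EBRTcH3 cells are called pluripotent, and days 6 and 10 belong to neither. Each side joins different conditions, 8 of the 10 pluripotent arrays come from EBRTcH3, and no slide held arrays of both sides. The test used slide as a random block (limma), but side and slide cannot be told apart in this design. Its p-values measure the spread between these arrays and not between repeated cultures. They are too small for a claim on independent cultures. In such bulk samples, fewer cells of a type and less RNA per cell cannot be told apart.

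The labels were checked against markers. Summed levels of 10 pluripotent-cell markers were 7.64 to 9.03 on the pluripotent arrays and 4.84 to 6.87 on the early arrays, on a log2 scale. Summed levels of 12 fibroblast or feeder markers were 2.00 to 8.39 on the early arrays, where 5 to 12 of the markers were well above background, and 0.63 to 3.60 on the pluripotent arrays, where 3 to 9 were. Gonadal somatic markers were at 1.94 to 3.46 and 0.35 to 1.26, with 5 to 13 and 4 to 11 of 15 well above background. Blood cell markers reached 5.94 on the array of uncultured PGCs, with 7 of 11 well above background. On the other early arrays they were at -1.57 to 0.02, below the pluripotent arrays at 0.86 to 2.56. Primordial germ cell markers were at 3.67 to 6.81 on the early arrays, with 8 or 9 of the 9 measured well above background, and at 4.04 to 5.74 on the pluripotent arrays, with 9 of 9, so they did not set the sides apart.

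Many glycolytic promoters carry ACGTG, the core of the hypoxia response element that HIF proteins bind, and these stretches show where it lies in 6 of the genes described below. Windows of 250 bases before the RefSeq start were searched for ACGTG on both strands in the 34 genes with an entry. A gene counted where the window before any of its listed starts held a match, in these genes and in all genes alike. The motif was in 14 of them (41.2 percent), and in 18.5 percent of 27025 genes. It was in 7 of the 16 genes called lower on the early arrays below (43.8 percent) and in 7 of the other 18 (38.9 percent). The E-box CACGTG, which contains ACGTG and is read by Myc family proteins, was in 5 of 34 (14.7 percent) and in 6.86 percent of all. A match is a description of these letters, not of binding. The sequences are from RefSeq on GRCm38.p6, the strand of the gene, 5′ to 3′, with each match in capitals. The first 5 belong to genes called lower on the early arrays, and Pfkfb3 to a gene called higher. Slc2a1 is chr4:119108495-119108744 (+), Slc16a3 chr11:120948817-120949066 (+), Pgk1 chrX:106186850-106187099 (+), Ldha chr7:46845554-46845803 (+), Pgam1 chr19:41911621-41911870 (+) and Pfkfb3 chr2:11553930-11554179 (-).
Slc2a1: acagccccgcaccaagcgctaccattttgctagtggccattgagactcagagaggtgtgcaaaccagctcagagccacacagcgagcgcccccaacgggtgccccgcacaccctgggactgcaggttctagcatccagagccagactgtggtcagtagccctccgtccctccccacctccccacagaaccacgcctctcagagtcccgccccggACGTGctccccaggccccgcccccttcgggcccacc
Slc16a3: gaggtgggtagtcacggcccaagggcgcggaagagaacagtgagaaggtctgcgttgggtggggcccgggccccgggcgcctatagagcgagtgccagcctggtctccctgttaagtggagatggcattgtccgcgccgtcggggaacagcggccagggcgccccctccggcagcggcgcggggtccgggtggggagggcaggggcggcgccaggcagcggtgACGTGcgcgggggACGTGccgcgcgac
Pgk1: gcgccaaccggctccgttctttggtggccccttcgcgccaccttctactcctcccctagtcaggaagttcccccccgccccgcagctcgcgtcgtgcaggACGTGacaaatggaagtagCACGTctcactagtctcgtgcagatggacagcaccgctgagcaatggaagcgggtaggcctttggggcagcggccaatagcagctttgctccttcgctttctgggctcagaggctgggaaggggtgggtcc
Ldha: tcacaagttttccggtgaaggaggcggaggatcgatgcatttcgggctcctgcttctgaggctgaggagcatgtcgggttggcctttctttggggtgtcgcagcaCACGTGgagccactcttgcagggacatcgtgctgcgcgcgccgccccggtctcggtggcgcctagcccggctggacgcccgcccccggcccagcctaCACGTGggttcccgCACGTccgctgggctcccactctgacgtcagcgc
Pgam1: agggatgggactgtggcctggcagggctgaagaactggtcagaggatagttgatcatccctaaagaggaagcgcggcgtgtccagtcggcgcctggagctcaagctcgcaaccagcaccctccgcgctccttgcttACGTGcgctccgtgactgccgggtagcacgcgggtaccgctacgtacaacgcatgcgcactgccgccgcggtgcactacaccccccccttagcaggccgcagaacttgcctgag
Pfkfb3: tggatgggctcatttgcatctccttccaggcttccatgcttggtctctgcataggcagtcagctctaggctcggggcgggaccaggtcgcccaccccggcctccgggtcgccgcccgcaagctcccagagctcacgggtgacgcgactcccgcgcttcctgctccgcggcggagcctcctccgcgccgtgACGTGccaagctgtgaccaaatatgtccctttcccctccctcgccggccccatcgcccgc
Each stretch lies before the most upstream start. Aldoa and Pkm, not shown, hold ACGTG only at another start, and 1 of the 5 genes with an E-box holds that motif only at another start. Counted back from the start, the matches of Slc16a3 begin at positions -27 and -14, that of Slc2a1 at -36 and that of Pfkfb3 at -60. The Ldha stretch holds both E-boxes of this set.

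On the early arrays, 21 of the 35 genes differed from the pluripotent arrays, 17 lower and 4 higher. Of 21545 genes tested, 23.0 percent were called at an adjusted p under 0.05, 11.8 percent lower and 11.2 percent higher. The median difference of the 35 genes, early minus pluripotent, was -0.93 on the log2 scale, and that of all genes -0.11. For 12 of the 35 genes every early array lay below every pluripotent array, a separation that 3.85 percent of genes showed, and for 1, Rpia, every early array lay above, which 3.14 percent did. The lower genes ran from the glucose transporters through the payoff steps to lactate export, and the higher genes were Rpia, Eno2 and both bifunctional enzymes Pfkfb3 and Pfkfb4. With only ESC, EGC and parental EBRTcH3 on the pluripotent side, 11 genes were called: Slc2a3, Pfkl, Pgk1, Pgam2, Eno1, Pkm, Ldha, Slc16a3, Tkt, Pfkfb4 and Rpia. Without both 4OHT arrays 26 were called, and without the 6 arrays below an intensity of 250 also 26. The shares of all genes called in these smaller fits are not given here, so only the count of the main fit can be set against all genes.

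**Figure D1:**
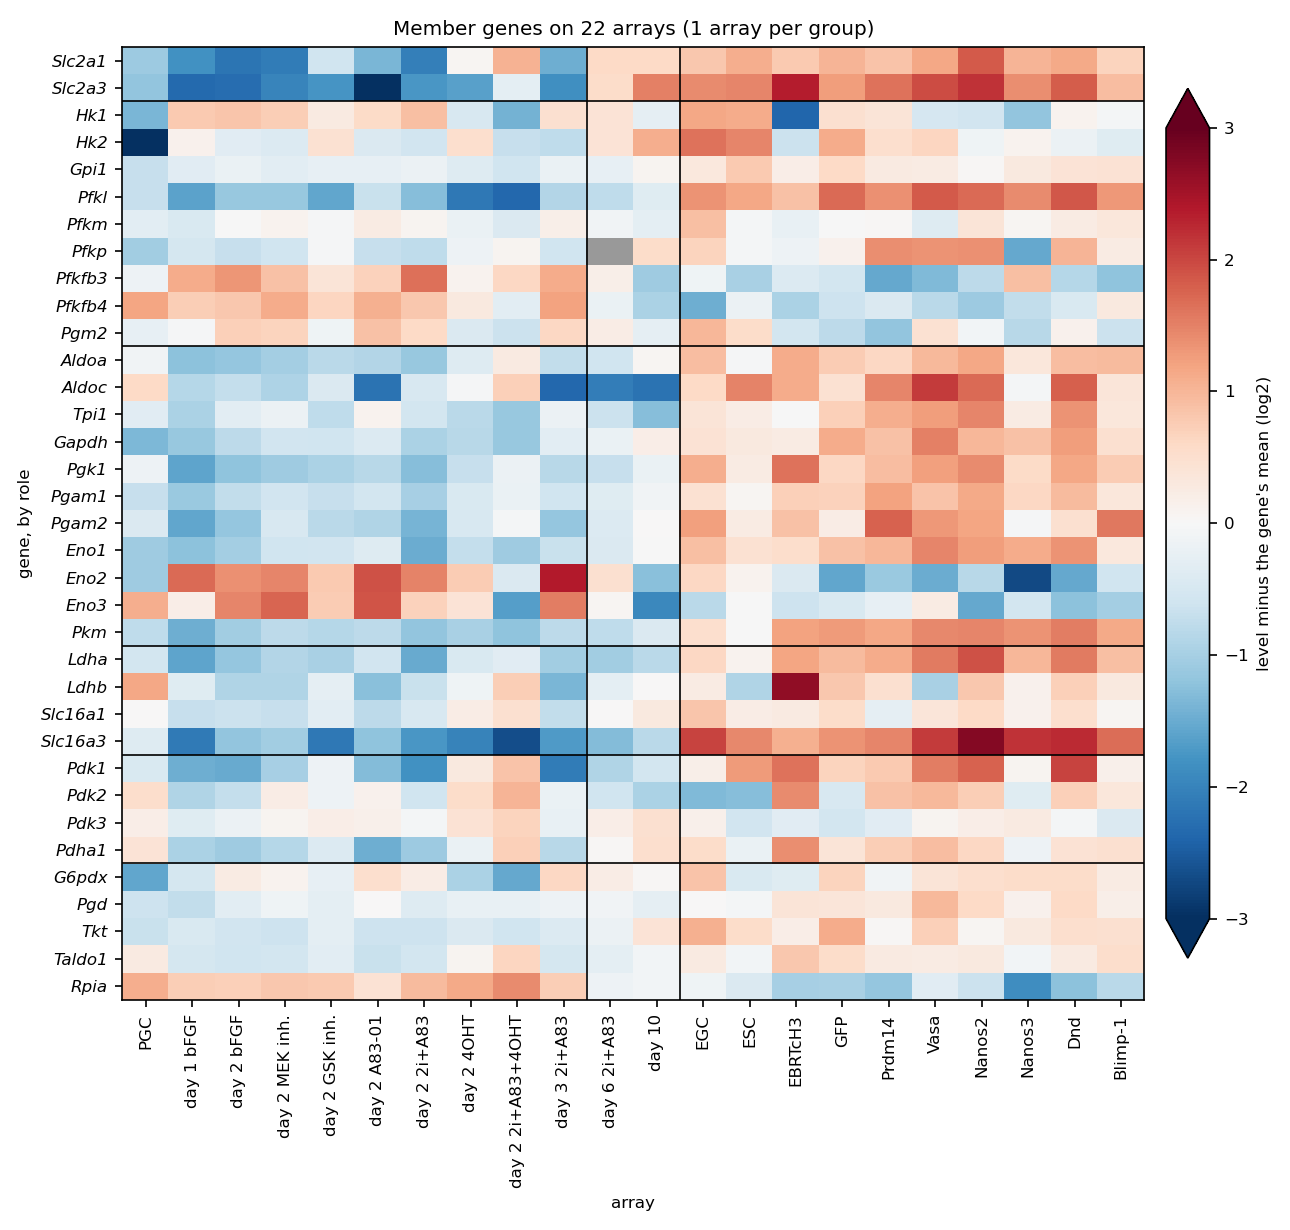
Heat map of the 35 genes (rows, grouped by role) on the 22 arrays (columns): colour gives the level minus the gene's mean over the arrays, on a log2 scale. Most rows of transport, payoff and lactate genes lie below their mean on the early arrays and above it on the EBRTcH3 arrays, and the median gene stood at -0.74 from its mean at day 1 and at 0.93 on the Vasa array.

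Both glucose transporters were lower on the early arrays. Slc2a3, the high-affinity transporter GLUT3, had levels of 1.58 to 4.64 (median 3.13) on the early arrays and 5.88 to 7.29 (median 6.49) on the pluripotent arrays, so the sides did not overlap. The lowest was the day 2 culture with A83-01, and the highest was parental EBRTcH3. The fitted difference was -3.32 ± 0.41 (SE), or 9.96-fold lower, with an adjusted p of 1.34e-05. Slc2a3 also had the widest range of the 35 genes over all 22 arrays, 5.71. Slc2a1, the widespread transporter GLUT1, had levels of 2.50 to 5.74 (median 3.29) and 5.36 to 6.53 (median 5.71), and differed by -2.09 ± 0.42 (adjusted p 0.00113). Its sides overlapped through 1 early array, the day 2 culture with 2i, A83-01 and 4OHT at 5.74. Its probe lies on chromosome 4 at 118809864 to 118809923 (mm9), and that of Slc2a3 on chromosome 6 at 122678075 to 122678134.

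Of 9 genes of the hexose phosphate steps, 2 were lower and 2 higher. Pfkl, the liver-type phosphofructokinase that commits sugar to glycolysis, was at -1.24 to 0.45 (median -0.09) on the early arrays and 1.99 to 2.99 (median 2.52) on the pluripotent arrays, a difference of -2.73 ± 0.30 (6.63-fold, adjusted p 4.15e-06). The muscle and platelet isoforms did not pass, with -0.28 ± 0.23 for Pfkm (adjusted p 0.447) and -0.93 ± 0.53 for Pfkp (0.235). Gpi1, which converts glucose 6-phosphate to fructose 6-phosphate, was at 5.92 to 6.44 and 6.64 to 7.39, without overlap, and differed by -0.76 ± 0.18 (adjusted p 0.00353). It was no longer called with normexp background, quantile normalization or the mean of its probes.

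The 2 genes of this step that were higher make fructose 2,6-bisphosphate, the activator of phosphofructokinase. Pfkfb4 was at -0.91 to 0.61 (median 0.21) on the early arrays and -2.07 to -0.30 (median -1.28) on the pluripotent arrays, a difference of 1.44 ± 0.31 (adjusted p 0.00185). Pfkfb3 was at 0.30 to 2.10 (median 1.24) and -1.07 to 1.35 (median -0.36), with a difference of 1.37 ± 0.42 (adjusted p 0.0203). Both overlapped between sides: the culture with 2i, A83-01 and 4OHT was the lowest early array for Pfkfb4, and the Nanos3 array, at 1.35, the highest pluripotent one for Pfkfb3. Hk2, the inducible hexokinase, was at -1.40 to 2.63 (median 1.72) and 1.48 to 3.77 (median 2.44), and its difference of -1.41 ± 0.58 did not pass (adjusted p 0.0843). Hk1, the housekeeping hexokinase, was at 0.65 to 2.96 and -0.31 to 3.23, with a difference of -0.13 ± 0.59 (0.928). Pgm2, a phosphoglucomutase, differed by 0.22 ± 0.41 (0.791).

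The triose and payoff steps held most of the lower genes, 9 of 11, with 1 higher. Pkm, pyruvate kinase, which makes the last ATP of the path, was at 4.57 to 5.27 (median 5.13) on the early arrays and 6.04 to 7.58 (median 7.28) on the pluripotent arrays, and differed by -1.92 ± 0.24 (3.78-fold, adjusted p 1.31e-05). Its probe was not assigned to either splice form. Eno1, the ubiquitous enolase, was at 2.74 to 3.85 (median 3.37) and 4.55 to 5.7 (median 5.19), with -1.75 ± 0.25 (adjusted p 6.01e-05). In both genes day 1 or day 2 cultures were the lowest arrays and the ESC or Blimp-1 array the lowest of the pluripotent side.

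Pgk1, phosphoglycerate kinase, was at 5.18 to 6.59 (median 5.86) and 7.0 to 8.37 (median 7.77), a difference of -1.69 ± 0.28 (adjusted p 0.000209). The mm9 position listed for its probe is on chromosome 3 at 57906703 to 57906762 while the gene is on X, so the gene and a copy elsewhere cannot be told apart. Gapdh, which reduces NAD, was at 5.75 to 6.79 (median 6.29) and 7.35 to 8.62 (median 7.98), with -1.55 ± 0.28 (adjusted p 0.000496). Pgam1 was at 5.92 to 6.83 and 7.10 to 8.24, with -1.26 ± 0.22 (adjusted p 0.000353). Pgam2, the muscle form of that mutase, was at -1.61 to -0.12 and -0.09 to 1.71, with -1.67 ± 0.37 (adjusted p 0.00222). None of these 4 overlapped between the sides, although the highest early level of Pgam2, -0.12, came close to its lowest pluripotent level, on the Nanos3 array.

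Aldoa, the main aldolase, was at 7.32 to 8.82 and 8.52 to 9.71, with a difference of -1.36 ± 0.28 (adjusted p 0.0012). Tpi1, which interconverts the triose phosphates, was at 4.42 to 5.67 and 5.55 to 7.03, with -1.12 ± 0.35 (0.0261), and was not called with normexp background, quantile normalization or the percentile over detected probes. Aldoc, the brain aldolase, was at -1.51 to 1.56 and 0.79 to 2.94, with -1.70 ± 0.55 (0.0279). All of these overlapped between sides. The remaining enolases went the other way. Eno2, the neuronal enolase, was at -3.13 to 0.33 (median -0.64) on the early arrays and -4.77 to -1.43 (median -3.04) on the pluripotent arrays, a difference of 1.66 ± 0.59 that just passed (adjusted p 0.0473). Neither Eno2 nor Aldoc was called with the mean of a gene's probes, and Eno2 not without the filter on dim genes. Eno3, the muscle enolase, was at 0.59 to 4.12 (median 3.16) and 0.69 to 2.49 (median 1.64), and its 1.41 ± 0.51 fell just short at an adjusted p that rounds to 0.05.

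Of the 4 lactate genes, 2 were lower. Slc16a3 encodes MCT4, the exporter of cells that make much lactate, and had the largest fitted difference of the 35 genes. It was at 0.12 to 2.39 (median 1.06) on the early arrays and 3.85 to 5.54 (median 4.64) on the pluripotent arrays, without overlap. The difference was -3.36 ± 0.38, or 10.2-fold lower, with an adjusted p of 5.14e-06. Uncultured PGCs were the highest of the early arrays and the culture with 2i, A83-01 and 4OHT the lowest. Its probe is on chromosome 11 at 120820023 to 120820082 (mm9). Ldha, the subunit that favours pyruvate reduction, was at 6.05 to 7.30 (median 6.70) and 7.73 to 9.55 (median 8.68), a difference of -1.81 ± 0.28 (3.52-fold, adjusted p 0.000122). Ldhb, the subunit of oxidative tissues, was at 4.13 to 6.66 and 4.54 to 8.16, with -0.61 ± 0.63 (0.575). The second carrier, Slc16a1 (MCT1), was at 2.38 to 3.65 and 2.89 to 3.98, with -0.68 ± 0.26 (0.0586), so it did not pass.

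At the pyruvate gate, 1 of 4 genes was lower. Pdk1, a kinase that switches pyruvate dehydrogenase off, was at -0.71 to 2.25 (median 0.23) on the early arrays and 1.48 to 3.42 (median 2.42) on the pluripotent arrays, a difference of -1.79 ± 0.50 (adjusted p 0.0126). Both 4OHT arrays were the highest early ones and reached into the pluripotent range. Pdha1, the catalytic subunit of that enzyme, was at 2.60 to 4.78 and 3.88 to 5.47, with -0.93 ± 0.35 (0.0632). The kinases Pdk2 and Pdk3 differed by 0.16 ± 0.43 (0.861) and 0.28 ± 0.21 (0.406).

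The pentose phosphate branch held 1 lower and 1 higher gene of 5, both of its non-oxidative arm. Tkt, transketolase, was at 5.0 to 5.37 (median 5.09) and 5.71 to 6.79 (median 6.17), a difference of -1.10 ± 0.23 (adjusted p 0.00127), and it was not called with the mean of its probes. Rpia, which isomerises ribose 5-phosphate, was at 2.29 to 3.27 (median 2.66) on the early arrays and 0.00 to 1.73 (median 0.98) on the pluripotent arrays, a difference of 1.66 ± 0.29 (3.16-fold, adjusted p 0.000332). Days 6 and 10 were at 1.71 and 1.79, by the top of the pluripotent range. In the oxidative arm, G6pdx, which opens the branch, was at 1.53 to 3.71 and 2.63 to 3.95 (-0.66 ± 0.38, adjusted p 0.232), and Pgd differed by -0.60 ± 0.22 (0.0543). Taldo1, transaldolase, differed by -0.49 ± 0.24 (0.155).

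**Figure D2:**
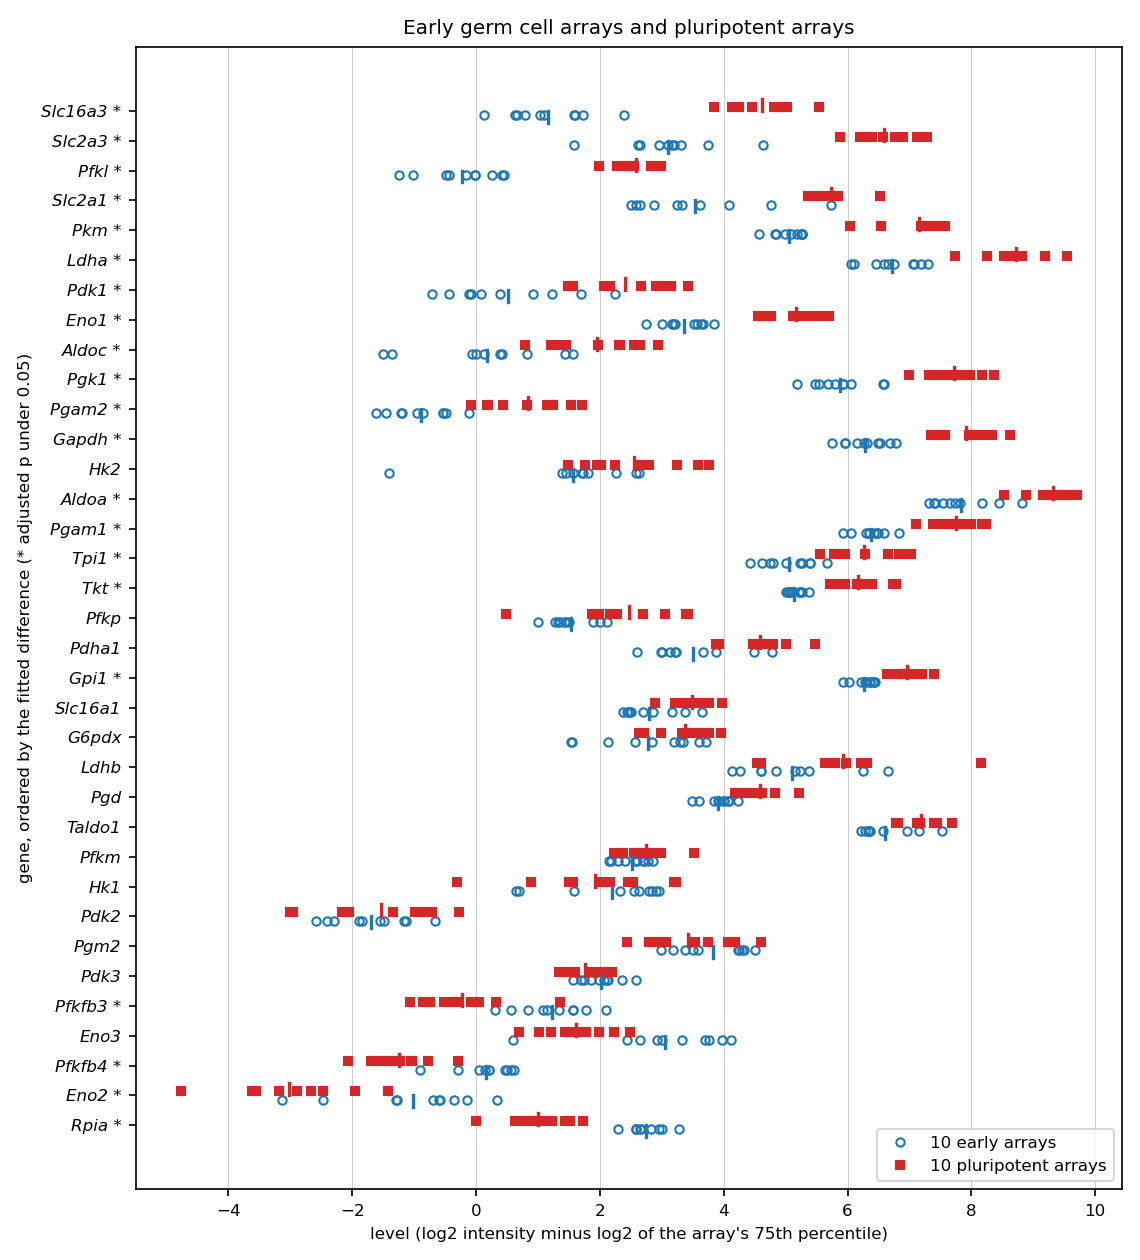
Levels of the 35 genes (rows, ordered by fitted difference, with a star at an adjusted p under 0.05) on the 10 early arrays (open circles) and the 10 pluripotent arrays (filled squares), on a log2 scale relative to each array's 75th percentile. Slc16a3, Slc2a3, Pfkl and Pkm show the sides apart, and Hk1 and Pdk2 show them mixed.

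The fibroblast markers moved with this comparison, so the 3 early arrays whose summed fibroblast level lay inside the pluripotent range were read separately: uncultured PGCs at 2.92, the 4OHT culture at 3.22 and the culture with 2i, A83-01 and 4OHT at 2.00. On these 3 arrays, 15 of the 35 genes lay below every pluripotent array, as 7.38 percent of all genes did, and Rpia lay above every one, as 9.22 percent did. These 3 are also among the dim arrays. The top of that pluripotent range, 3.60, is the ESC array, and the next highest pluripotent array is Nanos2 at 2.65. Uncultured PGCs also held blood cell markers at 5.94, and the part of other cells in the result was not tested. Brightness moved with many levels within the early side. Over the 10 early arrays the Pearson correlation of level with the log2 of the 75th percentile was below -0.7 for 15 of the 35 genes (45.7 percent of all genes) and above 0.7 for 6 (14.9 percent). It was -0.85 for Slc2a1, -0.87 for Pdk1, -0.91 for Rpia, 0.96 for Hk1 and 0.91 for G6pdx, but 0.24 for Slc16a3, 0.06 for Pkm and 0.17 for Eno1. These arrays share slides and conditions, and the part of brightness in the results was not tested beyond leaving out the dim arrays.

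Along the culture the 35 genes did not move as 1 block, and no gene of any kind passed the test of a trend over PGC, days 1, 2, 3, 6 and 10 (limma, slope on log2 of day plus 1, 0 percent of 18671 genes called). Of the 35, 6 had an unadjusted p under 0.05, as did 12.7 percent of all genes. The steepest positive slopes per doubling of day plus 1 were 1.10 ± 0.30 for Hk2 (adjusted p 0.247), 0.92 ± 0.34 for Slc2a3 (0.361), 0.67 ± 0.29 for Slc2a1 (0.414) and 0.47 ± 0.13 for Gapdh (0.263). The steepest negative ones were -0.83 ± 0.22 for Aldoc (0.237), -0.66 ± 0.31 for Eno3 (0.438), -0.57 ± 0.20 for Pfkfb4 (0.332) and -0.38 ± 0.15 for Rpia (0.381).

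Between single arrays, which have no test, the first day of culture showed the widest shifts. Hk2 stood at -1.40 in uncultured PGCs and 2.26 at day 1, Eno2 at -3.13 and -0.35, and Hk1 at 0.70 and 2.84. The next brightest Hk1 probe went the other way, at 1.44 and 0.3, while the dimmer probes that follow the probe used went with it. Slc16a3 stood at 2.39 and 0.66, Ldhb at 6.66 and 5.15, Aldoc at 1.44 and 0.00, and Pgk1 at 6.59 and 5.18. Pfkfb3 stood at 0.30 and 1.57. In all, 5 of the 35 genes were at least 2-fold higher at day 1 and 10 at least 2-fold lower, while 19.9 and 31.8 percent of genes were. These arrays were on different slides. Blood cell markers were at least 2-fold lower at day 1 in 7 of 7 (median -5.79), gonadal somatic markers lower in 9 of 13 (-1.73), and fibroblast or feeder markers higher in 8 of 11 (4.35), and their part in these shifts was not tested. From day 1 to day 2 with 2i and A83-01, on 1 slide, none of the 35 differed 2-fold (4.25 percent of genes were higher and 6.35 percent lower). The ends were G6pdx at 0.74, Pgm2 at 0.64, Slc2a3 at 0.59 and Pfkm at 0.56, and Hk2 at -0.69, Pdk1 at -0.36, Ldhb at -0.32 and Eno1 at -0.27. From day 2 to day 3, Aldoc was the 1 gene past 2-fold, at 0.38 and -1.51 (6.83 percent of genes were lower), with Ldhb, Pfkfb3 and Hk1 at -0.70, -0.54 and -0.41 and Eno2, Eno3, Eno1 and Gapdh at 0.90, 0.84, 0.83 and 0.63. Day 2 with bFGF alone stood close to day 1 as well, with 1 of the 35 beyond 2-fold (4.83 percent of genes were higher): Eno3 at 1.27, followed by Slc16a3, G6pdx and Pgm2 at 0.94, 0.78 and 0.75, and with Ldhb, Hk2, Slc2a1 and Eno2 at -0.55, -0.46, -0.38 and -0.34.

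Day 6 was where the glucose transporters stood higher. Slc2a3 was at 3.1 on day 3 and 5.5 on day 6, and Slc2a1 at 3.24 and 5.28, on arrays of the same slide. Pdk1 stood at -0.71 and 0.48, Hk2 at 1.38 and 2.54 and Ldhb at 4.13 and 5.21, which makes 5 of 34 genes at least 2-fold higher (14 percent of genes). Eno2 stood at 0.33 and -1.57, Eno3 at 3.76 and 2.29 and Pfkfb4 at 0.61 and -0.80, which makes 3 lower (8.71 percent), and the next lowest difference was Pfkfb3 at -0.93. At day 10 Slc2a3 was at 6.46 and Slc2a1 at 5.28, both near the pluripotent arrays, while Slc16a3 at 1.98, Pfkl at 0.76 and Ldha at 6.81 stood within or near the early range. Between day 6 and day 10 none of 34 genes was 2-fold higher (9.33 percent of genes were), with Slc2a3, Hk2, Aldoa and Tkt at 0.95, 0.68, 0.67 and 0.59. Eno3, Eno2 and Pfkfb3 were at -2.0, -1.74 and -1.24 (10.4 percent of genes were 2-fold lower) and Pfkfb4 at -0.74.

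Day 10 and day 1 shared a slide. There 13 of the 35 genes were at least 2-fold higher at day 10 and 6 lower (20 and 15.6 percent of genes), with Slc2a3 3.85, Slc2a1 2.41, Pgam2 1.57 and Pdha1 1.45 higher on the log2 scale, and differences of -2.96 for Eno2, -2.19 for Pfkfb3, -2.14 for Eno3 and -1.69 for Pfkfb4. The median of the 35 was 0.83, and 0.26 after quantile normalization. The EGC line differed from day 10 in other genes: 12 were at least 2-fold higher and 0 lower (6.51 and 7.32 percent of genes), on different slides. Slc16a3 stood at 1.98 at day 10 and 4.82 in the EGC line, Aldoc at -1.36 and 1.45, Eno2 at -3.31 and -1.43, Pfkl at 0.76 and 2.48, Tpi1 at 4.30 and 5.96 and Ldha at 6.81 and 8.25. The lowest differences were Pfkfb4 at -0.52, Pdk2 at -0.37, Pdk3 at -0.31 and the transporter Slc2a3 at -0.11. Fibroblast or feeder markers were at least 2-fold lower in the EGC line in 10 of 11 (median -3.4), and their part was not tested. EGC and ESC lines were 2-fold apart in 4 of the 35: G6pdx at 3.95 and 2.63, Ldhb at 5.75 and 4.6, Pfkfb4 at -2.07 and -0.78, and Pdk1 at 1.57 and 2.66 (16.4 percent of genes were 2-fold higher in the EGC line and 7.53 percent lower). Pgam2, Pfkm, Aldoc and Eno3 followed at 0.98, 0.97, -0.87 and -0.79.

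**Figure D3:**
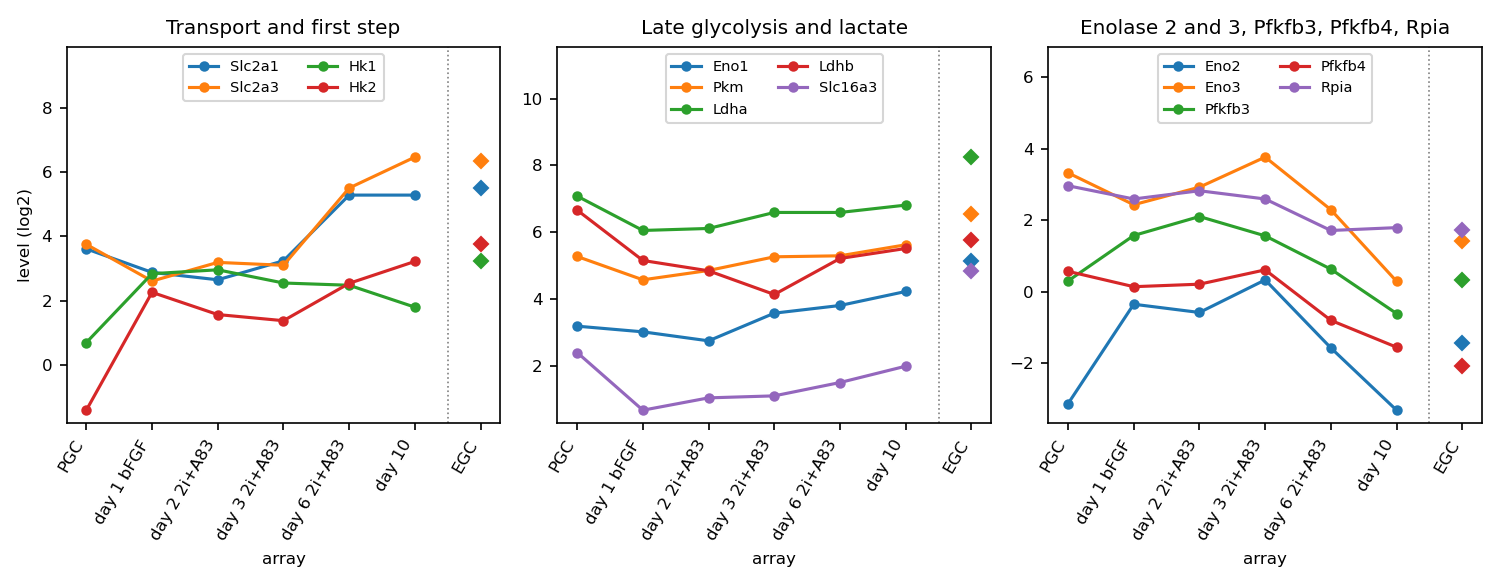
Levels of 14 genes in 3 panels on the arrays of uncultured PGCs, days 1, 2, 3, 6 and 10 (circles joined by lines) and the EGC line (diamonds), 1 array per point, on a log2 scale relative to each array's 75th percentile. Slc2a3 goes from 3.1 at day 3 to 5.5 at day 6, whereas Slc16a3 is at 1.98 at day 10 and 4.82 in the EGC line.

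Uncultured PGCs were also compared with the ESC, EGC and parental EBRTcH3 lines, which lets the embryo's cells stand without culture. Hk2 had the widest difference, -1.40 in PGCs against 3.59, 3.77 and 1.48 in the lines, or -4.35 ± 1.13 with an adjusted p of 0.271. Slc2a3 differed by -2.93 ± 0.78 (0.28), Slc2a1 by -1.97 ± 0.70 (0.433) and Slc16a3 by -1.91 ± 0.77 (0.508). At the other end were Pfkfb4 at 2.04 ± 0.82 (0.508), Rpia at 1.61 ± 0.75 (0.584), Eno3 at 1.57 ± 0.75 (0.594) and Pdk2 at 0.91 ± 1.29 (0.893). The median of the 35 genes was -1.13 and that of all genes 0.12. None of 18532 genes passed (limma, 0 percent), and 4 of the 35 had an unadjusted p under 0.05, as did 9.96 percent of genes. Blood cell markers had a median of 6.71 (7 of 9 positive), gonadal somatic markers of 1.4 (13 of 15) and pluripotent-cell markers of -2.01 (10 of 10 negative), and their part was not tested. Without the ESC array the Hk2 difference was -4.03.

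At day 2 the kinase inhibitors and A83-01 left most of the 35 genes within 2-fold of the culture with bFGF alone. The MEK inhibitor array had none beyond 2-fold (6.98 percent of genes were higher and 4.53 percent lower), and its widest differences were 0.93 for Pdk2, 0.67 for Pgam2, 0.51 for Pdk1 and 0.42 for Eno1. At the low end were Pfkfb3 at -0.45, Aldoc at -0.19, G6pdx at -0.14 and Gpi1 at -0.12. The GSK inhibitor array had 2 higher (12.5 percent of genes): Slc2a1 at 4.09 against 2.50, and Pdk1 at 1.23 against -0.12, followed by Hk2 and Pfkp at 0.79 and 0.65. Its lowest differences were -0.97 for Slc16a3, -0.94 for Pfkfb3, -0.84 for Pgm2 and -0.70 for Eno3. With A83-01, Aldoc was at -1.36 against 0.13 and Slc2a3 at 1.58 against 2.65, the 2 genes that were 2-fold lower (6.66 percent of genes). Pfkfb3 and Pdha1 were at -0.64 and -0.42, and Pdk2, Slc2a1, Eno1 and Ldha at 0.86, 0.83, 0.64 and 0.60. With 2i and A83-01 together none was beyond 2-fold (2.25 and 2.45 percent of genes), on the same slide as bFGF alone, and the widest were Eno3, Slc16a3, Eno1 and Ldha at -0.78, -0.57, -0.48 and -0.34 and Slc2a3, Pfkfb3, Aldoc and Rpia at 0.54, 0.31, 0.25 and 0.23. The MEK inhibitor, GSK inhibitor and A83-01 arrays lay together on another slide, so addition and slide cannot be told apart for them. Pdk2 stood at -1.48, -1.84 and -1.56 on them, against -2.41 with bFGF alone and -2.30 with 2i and A83-01. All of these day 2 differences share the 1 array of bFGF alone. Against it, fibroblast or feeder markers were at least 2-fold lower in 8 of 12 with the MEK inhibitor (median -1.17), 9 with the GSK inhibitor (-2.7), 10 with A83-01 (-1.53) and 1 with 2i and A83-01 (0.05). With A83-01, 8 of 9 primordial germ cell markers were lower as well (-1.85). The part of these markers was not tested.

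An additive model over the 7 day 2 arrays had no slide term. It called none of 18684 genes for the MEK inhibitor, the GSK inhibitor, A83-01 or 4OHT (limma, 0 percent each). Of the 35 genes, 0, 4, 0 and 17 had an unadjusted p under 0.05 in turn, while 3.24, 4.77, 3.74 and 46.7 percent of all genes did. For the GSK inhibitor the 4 were Eno3 at -1.18 ± 0.37, Slc16a3 at -0.88 ± 0.26, Slc2a3 at 0.92 ± 0.32 and Aldoc at 0.95 ± 0.36, each with an adjusted p of 0.902. Slc2a1, the widest gene between single arrays, had a GSK term of 0.89 ± 0.49, and it ranged from -0.77 to 1.79 over the alternatives. Ldhb stood at 0.71 ± 0.29, Eno2 at -0.78 ± 0.38 and Pgm2 at -0.63 ± 0.28. For the MEK inhibitor, Slc2a3 at 0.72 ± 0.32, Aldoc at 0.47 ± 0.36, Pfkfb3 at 0.42 ± 0.43 and Pgam2 at 0.24 ± 0.39 were highest and Slc2a1 at -0.62 ± 0.49, Hk2 at -0.54 ± 0.34, Eno1 at -0.26 ± 0.40 and Eno3 at -0.21 ± 0.37 lowest (adjusted p 1.0). For A83-01, Aldoc at -0.83 ± 0.36, Slc2a3 at -0.66 ± 0.32, Hk2 at -0.54 ± 0.34 and Pdk1 at -0.50 ± 0.50 were lowest and Pfkl at 0.38 ± 0.26, Pgm2 at 0.37 ± 0.28, Eno2 at 0.36 ± 0.38 and G6pdx at 0.29 ± 0.29 highest (1.0).

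The 4OHT term had the widest differences of the 4, on the pair of arrays that shared the dimmest slide. Slc2a1 stood at 4.76 with 4OHT and 5.74 with 2i, A83-01 and 4OHT, and at 2.50 to 4.09 on the other day 2 arrays, a term of 2.18 ± 0.47 (adjusted p 0.0533). Pdk1 stood at 1.69 and 2.25 against -0.44 to 1.23 (1.75 ± 0.48, adjusted p 0.0648). Aldoc had a term of 1.23 ± 0.34 (0.0662) and Pdha1 of 1.19 ± 0.32 (0.0642). Eno3 had -1.79 ± 0.36 (0.0522), Hk1 -1.57 ± 0.36 (0.0546), G6pdx -1.39 ± 0.28 (0.0522) and Eno2 -1.18 ± 0.36 (0.0749). The direction of Slc2a1, Pdk1, Aldoc and Pdha1 was positive, and that of Eno3, Hk1, G6pdx and Eno2 negative, under every alternative run. No alternative used the second Pdk1 probe alone. That probe stood at -1.49 and -1.24 on the 4OHT arrays, -1.31 with bFGF alone and -1.22 with 2i and A83-01. Hk1 came to -0.03 with the mean of its probes and Eno2 to -0.03 with normexp background, and the dimmer of both 4OHT arrays did not hold Eno2 well above background. The median 4OHT term over all genes was 0.57, and 0.06 after quantile normalization. No call was made among the 35 genes in the design as set, but 14 were called without the MEK inhibitor, the GSK inhibitor or the A83-01 array, 2 without the array of bFGF alone, 13 with no filter on dim genes, 9 with normexp background and 7 with the mean of the probes. The shares of all genes called in these alternative fits are not given here, so the counts are not a result about the 35 genes. Between single arrays, 12 of the 35 were at least 2-fold higher and 8 lower with 4OHT added to 2i and A83-01 (37.8 and 17.8 percent of genes). Slc2a1 was at 5.74 against 2.65 and Pdk1 at 2.25 against -0.44, with Pdha1 and Pdk2 at differences of 1.79 and 1.63 and Eno3, Hk1 and G6pdx at -2.33, -2.30 and -1.75. Eno2, not well above background on the dimmer array, was at least 3.75-fold lower. With 4OHT alone against bFGF alone 3 were higher and 6 lower (26.6 and 12.4 percent of genes), led by Slc2a1, Pdk1, Pdk2 and Slc16a1 at 2.26, 1.81, 1.28 and 0.88 and by Hk1, Pfkfb3, G6pdx and Pgm2 at -1.32, -1.22, -1.21 and -1.16. Of the 2 arrays of that slide, the one with 2i and A83-01 had 1 gene higher and 3 lower (8.34 and 6.63 percent): Slc2a3 at 1.34, followed by Slc2a1, Pdha1 and Ldhb at 0.98, 0.91 and 0.87, and Eno3 and Hk2 at -2.05 and -1.18, Eno2 at least 2.27-fold lower, and Hk1 at -0.93. The 75th percentile was 120.3 and 241.8 on the 4OHT arrays and 454.1 to 674.3 on the others of day 2, and addition and slide cannot be told apart. The 12 fibroblast or feeder markers had a median 4OHT term of -3.73, negative for 9. With 4OHT alone, 10 of 12 were at least 2-fold lower than with bFGF alone (median -4.41), and with 4OHT added to 2i and A83-01, 8 of 11 (median -4.8). Gonadal somatic markers had a median term of 1.26, and the part of both lists in the result was not tested.

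**Figure D4:**
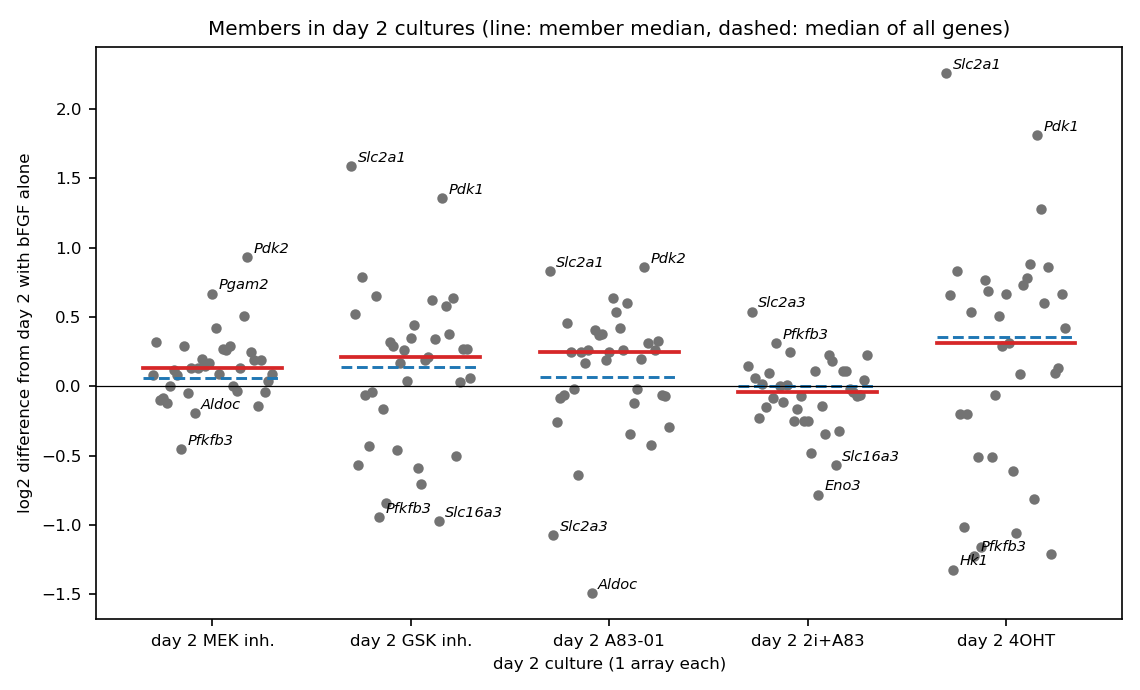
Log2 difference of each of the 35 genes from day 2 with bFGF alone (vertical axis) on 5 other day 2 arrays (horizontal axis), with the median of the 35 as a solid line, the median of all genes as a dashed line and the 4 outermost genes named. The widest points are Slc2a1 at 2.26 and Pdk1 at 1.81 with 4OHT, and with 2i and A83-01 no point is beyond -0.78 and 0.54.

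Other probes of the same genes were read where they existed. Of 29 further probes, 15 were well above background on all 22 arrays, and 14 of these had the same sign of early minus pluripotent as the probe used. For Aldoa, Gapdh, Ldha and Pgk1 the second probe followed the first with a Pearson correlation of 0.99 or 1.0 over the 22 arrays, and its difference of side means was -1.64, -1.64, -2.12 and -1.83. The Pgk1 probes overlap on chromosome 3, at 57906703 to 57906762 and 57906681 to 57906740, and the Aldoa probes share a stretch of sequence. For these genes the second probe is therefore no independent check. Hk1 was the exception. Its next brightest probe had a correlation of -0.76 with the first and was highest on dim arrays, at 2.53 on the array that had all 4 additions, 2.0 on the parental EBRTcH3 array, 1.68 with 4OHT and 1.44 in uncultured PGCs, where the probe used stood at 0.65, -0.31, 1.58 and 0.70. Of 4 dimmer Hk1 probes, 2 followed the probe used, with correlations of 0.98 and 0.92, and 2 did not, with 0.03 and -0.54. The Pdk1 probes parted most at day 2: the second probe stood at -1.49 and -1.24 on the 4OHT arrays, -0.99 with the GSK inhibitor and -1.31 with bFGF alone, and it followed the early and pluripotent sides, with a difference of -2.86. The higher Pdk1 values at day 2 therefore rest on 1 of 2 probes.

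**Figure D5:**
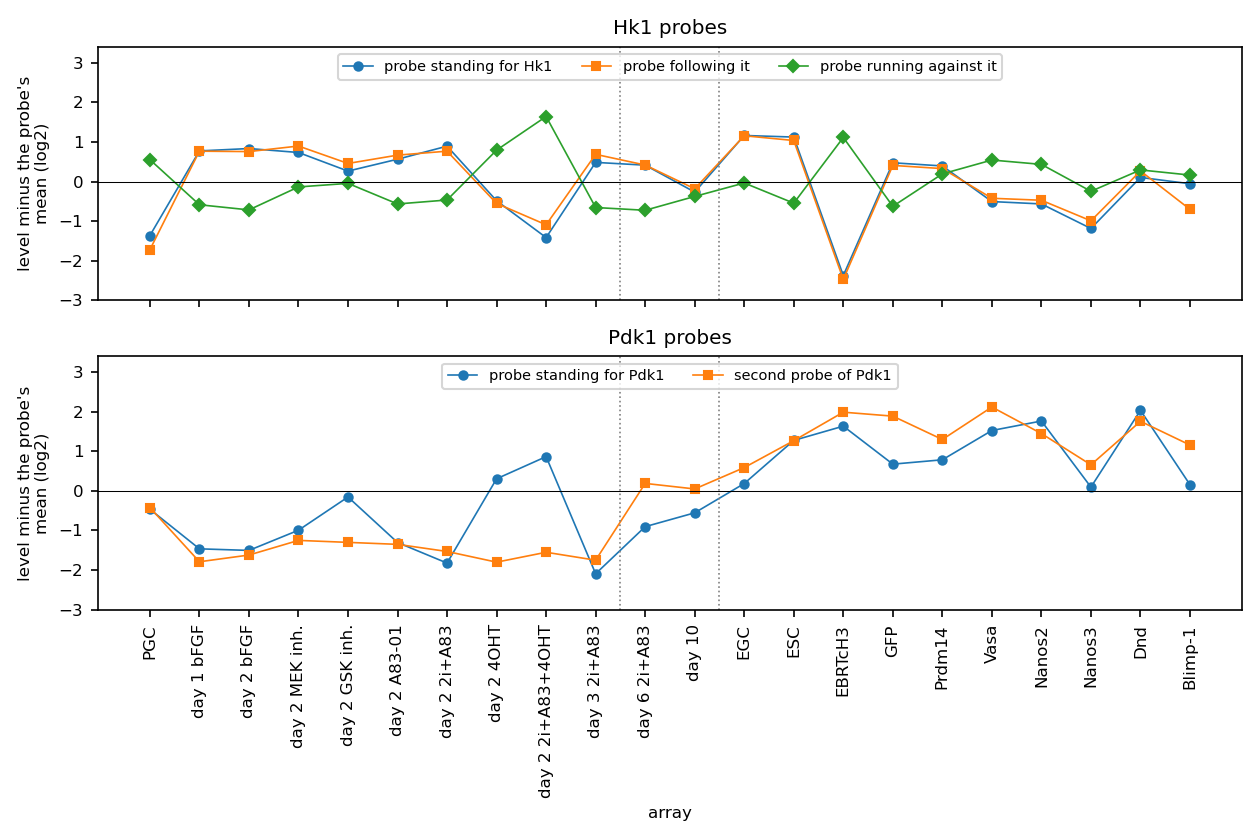
Level of each probe minus its own mean over the 22 arrays (log2), for 3 probes of Hk1 (upper panel) and both probes of Pdk1 (lower panel), with dotted lines around days 6 and 10. One Hk1 probe is high where the other 2 are low, on uncultured PGCs, parental EBRTcH3 and both 4OHT arrays, and the Pdk1 probes part on the 4OHT arrays, where their levels were 1.69 and 2.25 against -1.49 and -1.24.

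Forced expression of germ cell genes in EBRTcH3 cells gave no call among the 35 genes. Each construct was compared with the other arrays of its slide (limma). Nanos2, Nanos3 and Dnd shared a slide without a parental or GFP array, so they were compared only with each other. Prdm14 and Vasa were compared with each other and the parental array, and Blimp-1 with GFP. A change that constructs of a slide share cannot be seen this way. Of 18840 genes tested for Prdm14 and Nanos3, 18841 for Vasa, Nanos2 and Dnd and 18835 for Blimp-1, the share called was 0.0106 percent for Dnd (2 genes) and 0 percent for the other 5. The 35 genes had an unadjusted p under 0.05 in 4 cases for Nanos3 (9.13 percent of genes), 2 for Vasa (2.73 percent) and 0 for Prdm14, Nanos2, Dnd and Blimp-1. With Nanos3, Pfkp was at 0.49 against 3.4 and 3.05 on the Nanos2 and Dnd arrays of its slide (-2.74 ± 0.69, adjusted p 0.299). Aldoc was at 0.79 against 2.55 and 2.65 (-1.81 ± 0.47, 0.321), Pdk1 at 1.48 against 3.15 and 3.42 (-1.80 ± 0.50, 0.359) and Pfkfb3 at 1.35 against -0.32 and -0.39 (1.70 ± 0.56, 0.448). The pluripotent-cell markers had a median of -1.89 in that comparison, negative for 9 of 10, and their part was not tested. With Vasa, Ldhb was at 4.54 against 8.16 and 5.98 on its slide (-2.53 ± 0.86, adjusted p 1.0) and Pgm2 at 4.07 against 3.07 and 2.44 (1.32 ± 0.54, 1.0). With Blimp-1, Hk2 was at 1.76 against 3.25 with GFP (-1.49 ± 0.70, 0.999). The widest Prdm14 difference was Hk1, at 2.46 against -0.31 and 1.56 (1.84 ± 0.85). The next brightest Hk1 probe ran the other way, at 1.08 against 2.0 and 1.43, while the dimmer probes that follow the probe used stood higher with Prdm14. For Nanos2 the widest was Pfkp at 1.63 ± 1.10, with Pfkfb3 lowest at -0.80 ± 0.82. For Dnd the widest was Pfkp at 1.11 ± 1.19, with Pfkfb3 lowest at -0.90 ± 0.80. These values are set partly against the Nanos3 array of that slide, at 0.49 for Pfkp and 1.35 for Pfkfb3. They are therefore no separate result of Nanos2 or Dnd.

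Neighbouring genes of the same metabolism were taken from fixed lists, in the comparison of early and pluripotent arrays, where 23.0 percent of genes were called. Of 37 other genes of glycolysis, gluconeogenesis and the pentose phosphate branch, 2 were lower and 4 higher, and their median was -0.03. The lower ones were Prps1, which makes the activated ribose of nucleotide synthesis (-1.77 ± 0.48, adjusted p 0.0103), and Rpe, an epimerase of the pentose phosphate branch (-0.88 ± 0.25, 0.0156). Slc2a2 (GLUT2), well above background on none of the pluripotent arrays, was at least 6.6-fold higher (adjusted p 0.00819). Slc2a9 was higher by 2.71 ± 0.55 (0.00129), although it was well above background on 1 of the 10 pluripotent arrays, and G6pc3 by 0.80 ± 0.25 (0.0217).

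Of 28 genes of pyruvate entry and the citrate cycle, 1 was lower and 5 were higher, with a median of -0.07. The mitochondrial pyruvate carrier subunits Mpc1 and Mpc2 were higher by 1.31 ± 0.39 (adjusted p 0.0185) and 1.45 ± 0.39 (0.00896). Pdk4, another inhibitor of pyruvate dehydrogenase, was higher by 2.10 ± 0.49 (0.00378) and Pdp1, the phosphatase that reactivates that enzyme, by 1.17 ± 0.34 (0.0155). Suclg1 was higher by 0.83 ± 0.28 (0.0384), and Idh3a, a subunit of the citrate cycle's NAD-dependent isocitrate dehydrogenase, differed by -0.75 ± 0.24 (0.0266).

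Of 23 HIF targets outside glycolysis, 7 were lower and 3 higher, with a median of -0.10. Ak4 (-2.24 ± 0.54), Ankrd37 (-2.07 ± 0.54), Bnip3 (-1.58 ± 0.47), Kdm3a (-1.46 ± 0.37), Narf (-1.42 ± 0.47), Ddit4 (-1.06 ± 0.36) and Plod2 (-0.82 ± 0.28) were lower, and Lox (2.41 ± 0.70), Ero1a (1.01 ± 0.33) and Wsb1 (0.93 ± 0.32) higher. Of 26 regulators, 8 were lower and 3 higher, with a median of -0.50. Lin28a, an RNA-binding protein that promotes glycolytic metabolism, had the widest difference, -4.08 ± 0.38 (adjusted p 6.04e-07), and Esrrb (-2.50 ± 0.53) and Lin28b (-2.09 ± 0.44) were lower as well. Mycn, Foxo3, Trp53 and Arnt differed by -1.87, -1.23, -1.16 and -0.93. Akt1 (1.75 ± 0.28, adjusted p 0.000178) and the mitochondrial coactivator Ppargc1a (3.34 ± 0.76) were higher. Esrrb is also one of the pluripotent-cell markers above, so it was counted in both. Lox was well above background on 1 of the 10 pluripotent arrays and Ppargc1a on 3, so their fitted values rest mostly on dim levels there.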

How the data were processed

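Expression was measured on 22 one-colour arrays on 10 slides, 1 array per group. The deposited spot values are intensities, which the authors extracted with Agilent Feature Extraction 10.7.3.1, per the file headers and the submitters' processing notes, background-subtracted and detrended within each array and not normalized between arrays, with the design annotated on mm9. The authors' deposited value table held the same intensities unscaled (median ratio 1.0) and were used for an alternative. Every column was mapped to its array.

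From these intensities, outlier spots were left out, repeats averaged, and log2 values taken relative to the array's 75th percentile. Names for the 41174 probes came from RefSeq accessions (27530), symbols (5482), synonyms (635), the member list (65) or the file alone (7462). The probe with the highest mean level stood for its gene. Tests took in genes that 1 or more arrays of the fit called well above background, with limma 3.58.1 (lmFit and eBayes, R 4.3.3, two-sided, Benjamini-Hochberg adjusted p under 0.05). The early and pluripotent arrays were fitted with slide as a random block (18 residual degrees of freedom, correlation 0.55), the 7 day 2 arrays with 4 additive terms (2 degrees), PGCs against 3 lines (2), the course over 6 arrays (4), and each construct with slide as a fixed block over 8 arrays (4). Where a condition has 1 array, its spread is taken from the rest of the fit. Differences between 2 arrays have no test. Where a side was not well above background, its level was set per array to the lowest signal well above background, or the probe's own if higher. The number of arrays limits the precision. The fits were also run on simulated data with noise drawn independently for each array. Those data held no shared slide effect, so they do not test how slide enters the fits.

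All 35 genes could be named in any comparison; those past a threshold, the 6 with the widest range and 11 set ones were given in full, with the 4 highest and lowest differences of most comparisons, fewer for the constructs. The members, lists and tests were chosen with earlier results of these data known. Alternatives were normexp background, quantile normalization, a percentile over probes detected on all arrays, no filter, the mean of a gene's probes, the deposited table, other slide terms and arrays left out. Leaving out both 4OHT arrays, or the 6 dimmest arrays, was chosen after seeing the data. A few genes of the lists of neighbouring genes are counted but not reported by name here.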

Additional observations from a re-analysis of the deposited data

Results flagged for a closer look

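In 5 of 70 sets of 9 or 10 levels, 1 array lay far from the others of its side by Dixon's criterion, where chance marks about 1 set in 20. Hk2 in uncultured PGCs was the lowest of the early arrays at -1.40, with the next at 1.38. Eno3 in the day 2 culture with 2i, A83-01 and 4OHT was the lowest of the early arrays at 0.59, with the next at 2.43. Slc2a1 on the Nanos2 array was the highest of the pluripotent arrays at 6.53, with the next at 5.85. Pfkp on the Nanos3 array was the lowest of the pluripotent arrays at 0.49, with the next at 1.88. Ldhb on the parental EBRTcH3 array was the highest of the pluripotent arrays at 8.16, with the next at 6.32.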

How the results depend on the processing

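No paired analysis was possible because each group had 1 array and so no replicate numbers to share. Of the alternative values of counts and medians over the 35 genes, 326 kept their direction and size, 22 changed sign and 10 moved. All 21 genes called between the early and pluripotent arrays kept their sign under every alternative run, and 10 were called under all of them. The count was 11 with only ESC, EGC and parental EBRTcH3 as pluripotent arrays, and 20 to 27 otherwise, without the shares of all genes beside it. For PGCs against lines the median of the 35 genes was -1.13 without the ESC array. It was -0.91 without the EGC array and -0.96 without the parental EBRTcH3 array.

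For the 4OHT term the count was 9 with normexp, 13 with no filter and 7 with the mean of probes. It was 0 to 14 when arrays were left out in turn, and these counts have no share of all genes beside them. The median of the 4OHT term was 0.24 in the main setting, and -0.46 with normexp and with quantile normalization. With the percentile over probes detected on all arrays it was -0.10. Leaving out arrays in turn, the medians of the other terms ranged from -0.25 to 0.15 (MEK inhibitor), -0.44 to 0.25 (GSK inhibitor) and -0.29 to 0.14 (A83-01). The GSK median was -0.09 in the main setting and 0.01 with the mean of probes. The A83-01 median was 0.02 in the main setting and -0.20 with normexp. The Prdm14 median was -0.16 in the main setting and 0.14 with quantile normalization. The Blimp-1 median was -0.17 in the main setting and 0.05 with the mean of probes.

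Between single arrays, quantile normalization changed the median from -0.61 to 0.04 for day 1 minus PGC. For day 10 it changed from 0.26 to -0.07 minus day 6, and from 0.83 to 0.26 minus day 1. Against bFGF alone it changed from 0.21 to -0.06 for the GSK inhibitor and from 0.31 to -0.27 for 4OHT. For 2i, A83-01 and 4OHT minus 4OHT it was 0.12 in the main setting and -1.57 with normexp. With quantile normalization it was -0.33, and with the percentile over detected probes -0.11. Minus 2i and A83-01 it was 0.43, -1.21, -0.35 and -0.08, in the same order. The cause was not tested. Depth limits the dim arrays most: 44.4 percent of probes were well above background with 2i, A83-01 and 4OHT, against 64.7 percent in the EGC line.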
